A study of Homo sapiens with 6 samples.

Results

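The genes described here are 49 that act at mitotic entry, in the spindle and in cytokinesis, measured in 22Rv1, an established human prostate carcinoma cell line. They were taken by symbol from the 35322 gene symbols of a count matrix and comprise 12 mitotic kinesins, 16 spindle and cytokinesis factors, 10 mitotic cyclins, kinases and CDC25 phosphatases, 5 APC/C factors with securin and separase, 5 activators of the MYBL2-MuvB-FOXM1 type, and MKI67. RNA was sequenced from control cells, labelled WT, and from ZM11-kd1 and ZM11-kd2 cells, both knocked down for ZMYND11, an epigenetic reader protein, with 2 libraries in each of the 3 groups. All groups were grown in RPMI1640 with fetal bovine serum, penicillin and streptomycin, and none received a treatment. The study made stable knockdowns with lentiviral shRNAs in the pLKO.1 vector under puromycin selection, but the shRNA used in ZM11-kd1 and in ZM11-kd2, and whether the libraries of a group are from separate cultures, are not stated in its text or the labels. The controls are labelled WT, whereas the study describes control shRNAs for these experiments, which leaves unsettled if they carried a vector.

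Entry into mitosis is driven by CDK1 bound to cyclin B, which CDC25 phosphatases switch on and which works beside the Polo-like and Aurora kinases. Kinesin motors and microtubule-binding proteins then build the spindle, the anaphase-promoting complex (APC/C) with CDC20 or FZR1 marks securin and the cyclins for destruction so that separase can part the chromatids, and a RhoA-driven actomyosin ring with a midbody separates the daughter cells. Most of these genes are transcribed late in the cell cycle by the MuvB core (LIN9, LIN37, LIN52, LIN54 and RBBP4) together with MYBL2 and FOXM1, whereas the same core bound to RBL1 or RBL2 and E2F4 forms the repressive DREAM complex.

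The libraries held 26844128 to 38193748 counts, and 16510 genes, including all 49 of these, passed the low-count filter. Levels are given as CPM, counts scaled to a common library size, after TMM normalization, and a gene was called at a Benjamini-Hochberg adjusted p under 0.05 in edgeR's quasi-likelihood test of all 6 libraries. ZMYND11 was at 141 and 135 CPM in the control libraries, 27.7 and 26.1 CPM in ZM11-kd1 and 21.6 and 22.7 CPM in ZM11-kd2. The targeted gene was thus lower in every knockdown library. All 10 luminal prostate markers passed the filter. Their summed level was 2850 to 2870 CPM in control, 3710 to 3740 CPM in ZM11-kd1 and 4090 to 4110 CPM in ZM11-kd2. Singly they went both ways. In ZM11-kd1, 4 were called lower and 5 higher, with log2 fold changes from -3.24 to 1.26. In ZM11-kd2, 5 were called lower and 5 higher, with log2 fold changes from -2.36 to 1.24. The 6 fibroblast markers summed to 33.2 to 35.9 CPM in control, 86.6 to 87.2 CPM in ZM11-kd1 and 44.3 to 44.7 CPM in ZM11-kd2. COL1A1 was the most abundant of these. Of the 6, 1 was called lower (COL3A1) and 2 higher in ZM11-kd1, and 2 lower (COL3A1 and DCN) and 3 higher in ZM11-kd2, and PDGFRB was at most 0.296 CPM in any library. The 6 leukocyte markers summed to 2.13 to 4.11 CPM over all libraries with CD3E at 0 counts throughout, and the 5 endothelial and 3 basal epithelial markers summed to at most 0.29 and 0.234 CPM in any library. The part of these marker differences in the results below was not tested.

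The mitotic genes fell in both knockdowns, most of them to a small remainder of the control level. Together they took 0.359% and 0.354% of all counts in the control libraries, 0.0284% and 0.0283% in ZM11-kd1, and 0.0483% and 0.0492% in ZM11-kd2. In ZM11-kd1, 47 of the 49 genes were called lower, where 39.8% of all genes tested were, and 42 were called at least 4-fold lower, where 10.2% of all genes were. The exceptions were FZR1, which was called higher (as were 38.2% of all genes), and NUSAP1, which was not called. In ZM11-kd2, 45 genes were called lower against a background of 36.9%, 39 were at least 4-fold lower against 8.39%, LIN52 and LIN54 were called higher against 36.5%, and NUSAP1 and FZR1 were not called. The median log2 fold change of the 49 genes was -4.72 in ZM11-kd1 and -3.67 in ZM11-kd2, while that of all genes tested was -0.03 in each. Both comparisons use the same 2 control libraries. In bulk RNA, fewer cells in the cell cycle phases that express these genes and less of these RNAs per expressing cell cannot be told apart.

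The groups did not overlap for most members. In 45 of the 49 genes all 4 knockdown libraries had a lower CPM than either control library, where 33% of all genes tested did. These were the same 45 genes that were called lower in both knockdowns. Among all genes tested, the 500 with the lowest log2 fold change held 36 of the 49 in ZM11-kd1 and 30 in ZM11-kd2. In ZM11-kd1, 29 of the genes were at or under 5% of the control level, where 2.02% of all genes were, and 6 were at or under 1%, where 0.539% of all genes were. In ZM11-kd2, 18 were at or under 5%, against 1.25% of all genes, and 2 (KIF14 and ASPM) at or under 1%, against 0.26%. Only 7 were at least 4-fold lower in neither knockdown, namely KIF22, CDC25B, LIN9, LIN52, LIN54, FZR1 and NUSAP1.

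**Figure D1:**
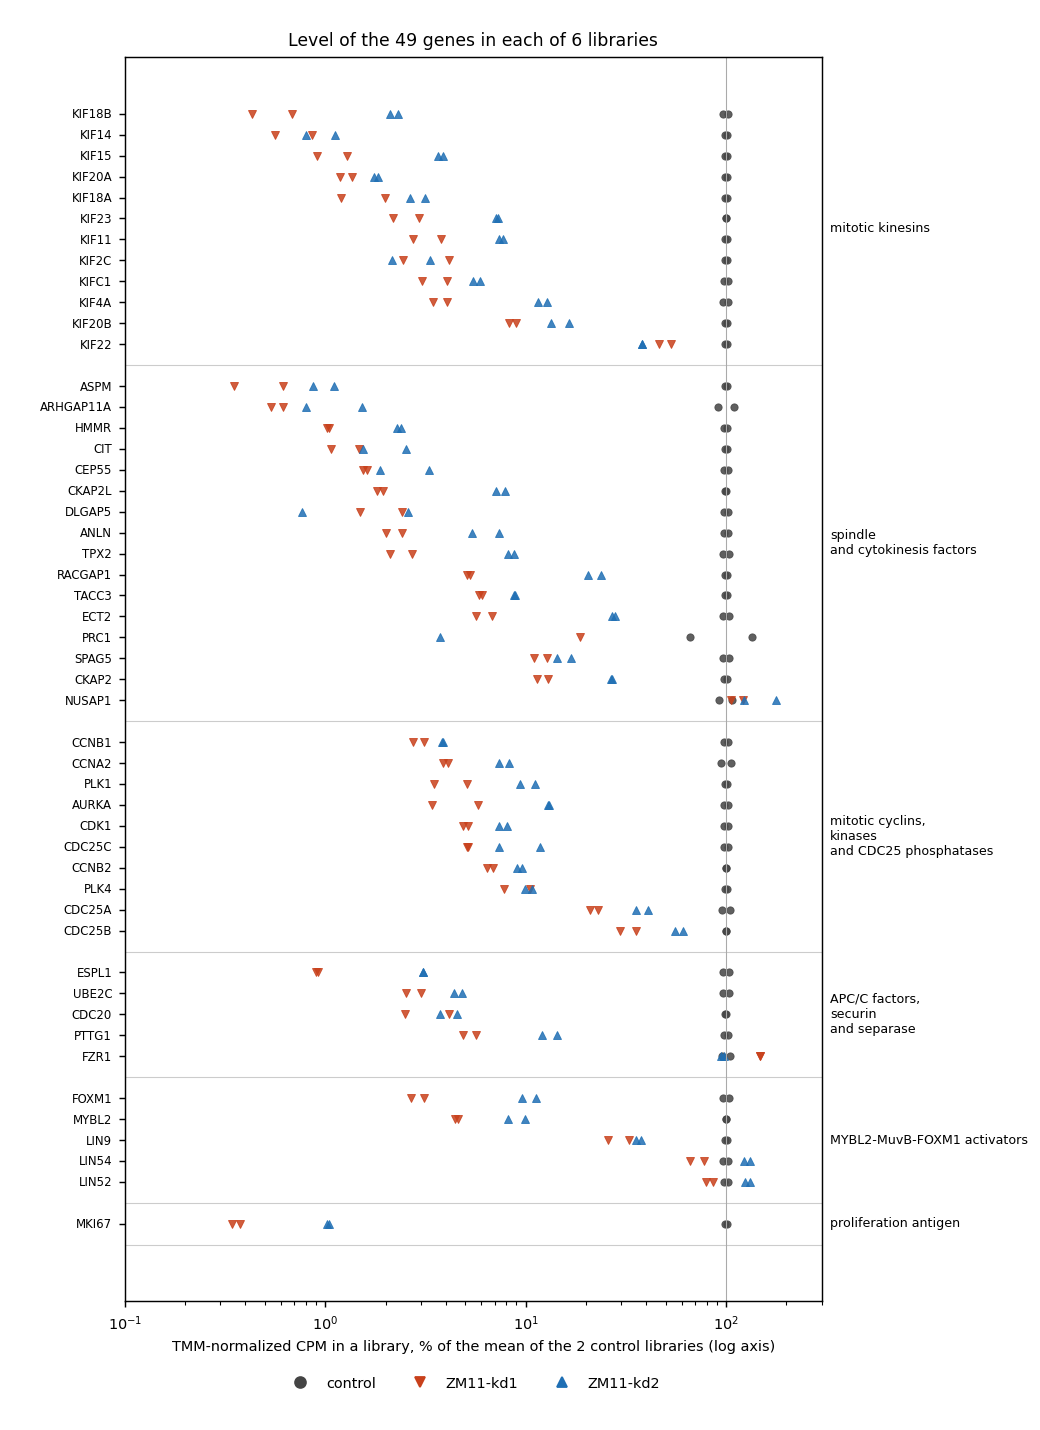
TMM-normalized CPM of the 49 genes in each of the 6 libraries, as a percentage of the mean of the 2 control libraries on a log axis, grouped by role (circles, control; down triangles, ZM11-kd1; up triangles, ZM11-kd2). Libraries at 0 counts are not drawn, which affects PRC1 in 1 library of each knockdown; most triangles lie far to the left of 100%, and those of FZR1, LIN52, LIN54 and NUSAP1 lie near it.

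The falls were not restricted to weakly expressed genes. Per kilobase of exon, the most abundant members in control cells were UBE2C at 52.2 CPM per kb, CCNB1 at 46.0, TPX2 at 41.0, CDK1 at 40.4 and CDC20 at 38.1, and these had log2 fold changes of -5.17, -5.09, -5.37, -4.32 and -4.93 in ZM11-kd1. At the other end, NUSAP1 at 0.315 CPM per kb and PRC1 at 0.142 CPM per kb had the lowest counted levels. Both share exonic bases with other genes and the counting rule is not known, so these levels are uncertain. In both control libraries 47 of the 49 genes had at least 100 counts, and the other two were NUSAP1 and PRC1.

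**Figure D2:**
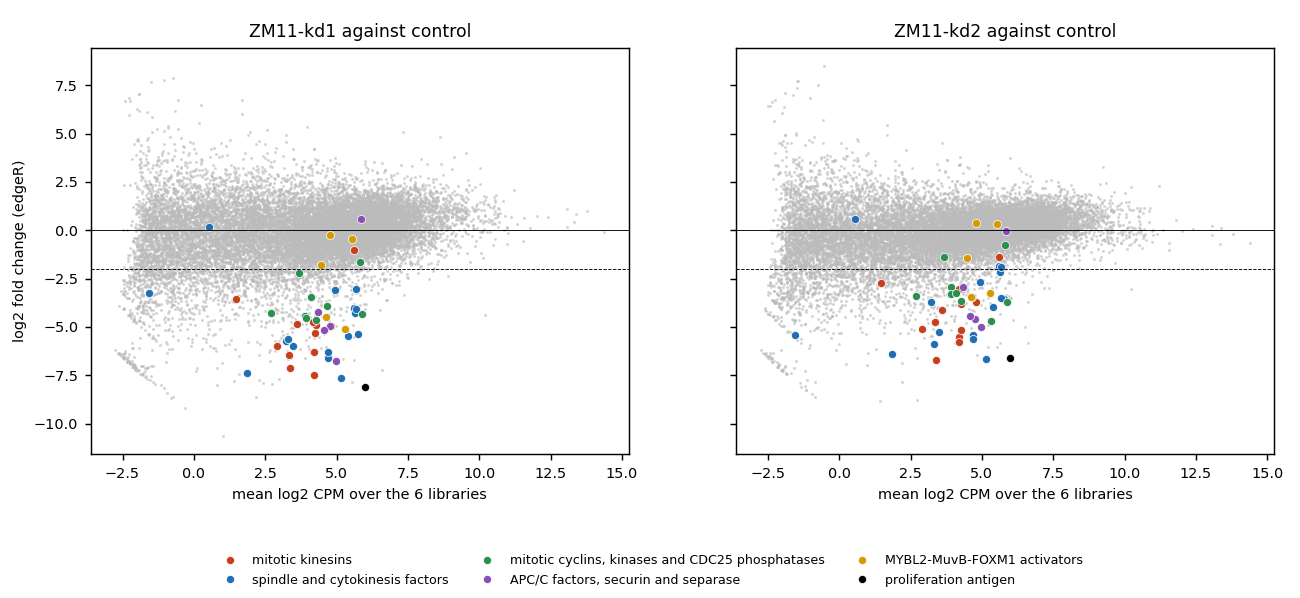
Log2 fold change (edgeR) against the mean log2 CPM over the 6 libraries for 16510 genes (grey) and the 49 mitotic genes (coloured by role), with a dashed line at a log2 fold change of -2. In both panels most coloured points lie below the dashed line, down to -8.11 for MKI67 in ZM11-kd1.

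Because these genes moved together, their promoters were read for the short elements known for late cell cycle genes. RefSeq promoter windows on GRCh38.p14, each from 250 bases before to 50 bases after a start site, were found for 44 of the 49 genes, with 60 windows in all. FOXM1, AURKA, TPX2, RACGAP1 and UBE2C had no entry. The elements searched on both strands were the cell cycle genes homology region (CHR, TTTGAA or TTCGAA), which LIN54 binds, the CCAAT box, which NF-Y binds, and the E2F motifs TTTGGCGC and TTTCGCGC. No motif contains another. A CHR was present in 38 of the 60 windows (63.3%), compared with 16.4% of all 35116 windows and 12.1% of the windows of tested genes. A CCAAT box was in 61.7% of the members' windows and 34.6% of all, both elements together were in 46.7% and 6.38%, and an E2F motif was in 8.33% and 1.15%. Of the windows of these genes, 48.3% had a CHR starting within 50 bases of the start site, against 5.01% of all windows. A match of this kind is a description of the sequence and not evidence of binding.

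**Figure D3:**
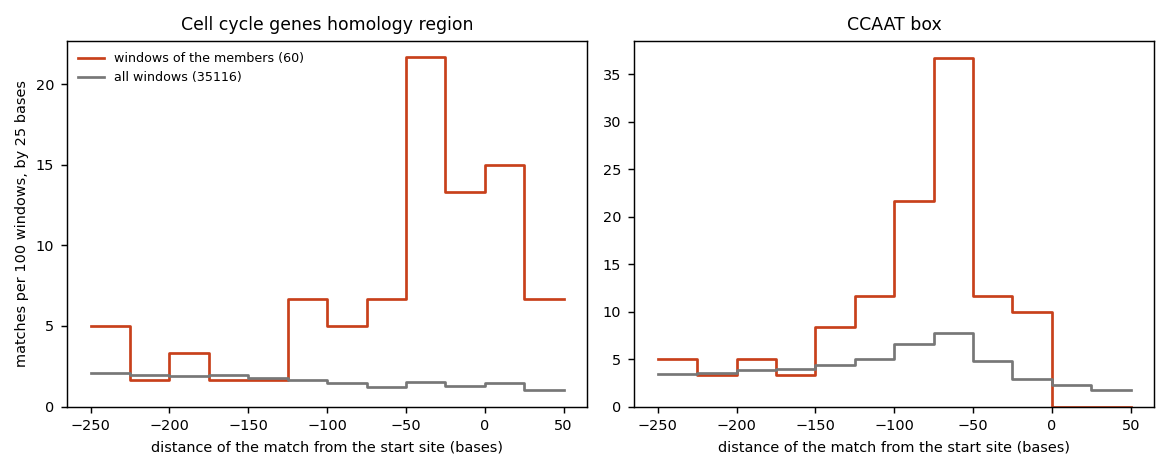
Matches per 100 promoter windows in steps of 25 bases, by distance from the start site, for the CHR (left) and the CCAAT box (right), in the 60 windows of the mitotic genes and in all 35116 windows. The CHR of the mitotic genes is densest from 50 to 25 bases before the start site (21.7 per 100 windows, against 1.53 in all windows) and the CCAAT box from 75 to 50 bases before it (36.7 against 7.79).

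The following windows are shown for a set of genes that fell at least 4-fold in both knockdowns, from the proliferation antigen to the mitotic cyclins and kinases, and each holds at least 1 CCAAT box upstream of a CHR. Each is written 5′ to 3′ on the gene's strand, with every match of the searched motifs in capitals (a CHR on the other strand reads TTCAAA and a CCAAT box ATTGG). They lie at chr10:128126374-128126673 on the minus strand (MKI67), chr15:59104896-59105195 on the plus strand (CCNB2), chr16:23678639-23678938 on the plus strand (PLK1), chr10:60778228-60778527 on the plus strand (CDK1, one of its 2 windows), chr5:163460382-163460681 on the plus strand (HMMR) and chr5:138331755-138332054 on the minus strand (CDC25C, one of its 4 windows).
MKI67: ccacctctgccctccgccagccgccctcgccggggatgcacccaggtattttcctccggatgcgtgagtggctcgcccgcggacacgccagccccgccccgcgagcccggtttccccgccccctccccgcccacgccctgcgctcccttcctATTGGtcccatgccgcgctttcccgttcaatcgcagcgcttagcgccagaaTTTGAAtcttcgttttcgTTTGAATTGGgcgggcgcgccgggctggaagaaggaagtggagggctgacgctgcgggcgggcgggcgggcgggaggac
CCNB2: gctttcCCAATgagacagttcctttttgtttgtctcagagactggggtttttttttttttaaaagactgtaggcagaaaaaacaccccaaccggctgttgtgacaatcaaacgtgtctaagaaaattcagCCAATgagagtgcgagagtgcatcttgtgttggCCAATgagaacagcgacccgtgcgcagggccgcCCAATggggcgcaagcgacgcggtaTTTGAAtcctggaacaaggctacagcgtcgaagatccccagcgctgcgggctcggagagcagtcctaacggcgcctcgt
PLK1: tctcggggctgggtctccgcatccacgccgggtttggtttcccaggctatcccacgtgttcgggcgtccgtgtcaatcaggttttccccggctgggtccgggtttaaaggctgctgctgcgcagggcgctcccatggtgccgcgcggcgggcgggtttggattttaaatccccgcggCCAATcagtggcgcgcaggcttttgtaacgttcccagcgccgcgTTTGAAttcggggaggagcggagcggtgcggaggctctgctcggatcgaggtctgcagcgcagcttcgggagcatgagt
CDK1: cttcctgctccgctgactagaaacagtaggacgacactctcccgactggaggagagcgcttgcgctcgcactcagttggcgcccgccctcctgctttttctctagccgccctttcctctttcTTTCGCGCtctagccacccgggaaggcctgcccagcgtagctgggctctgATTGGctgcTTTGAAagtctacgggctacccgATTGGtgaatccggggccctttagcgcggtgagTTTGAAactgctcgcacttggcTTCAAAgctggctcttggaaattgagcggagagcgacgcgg
HMMR: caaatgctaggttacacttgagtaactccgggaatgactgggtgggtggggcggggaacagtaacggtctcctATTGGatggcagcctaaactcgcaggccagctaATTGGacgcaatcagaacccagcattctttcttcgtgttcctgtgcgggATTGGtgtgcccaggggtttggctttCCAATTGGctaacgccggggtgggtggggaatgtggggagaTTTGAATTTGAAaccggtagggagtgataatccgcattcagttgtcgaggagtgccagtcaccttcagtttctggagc
CDC25C: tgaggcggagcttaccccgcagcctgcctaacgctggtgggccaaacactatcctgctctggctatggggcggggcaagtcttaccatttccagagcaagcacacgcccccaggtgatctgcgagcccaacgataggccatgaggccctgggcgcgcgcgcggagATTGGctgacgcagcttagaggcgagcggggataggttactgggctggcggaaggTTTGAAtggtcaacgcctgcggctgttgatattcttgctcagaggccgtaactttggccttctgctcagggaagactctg
Counting the start site as 1 and the base before it as -1, the CHR began at -29 in CCNB2 and PLK1, at -47 and -29 in MKI67, at -28 and -22 in HMMR and at -30 in CDC25C. The CDK1 window held 3 CHR matches, at -69, -13 and 10, with an E2F motif at -128. The CCAAT boxes began at -98 and -24 in MKI67, at -244, -120, -87 and -54 in CCNB2, at -73 in PLK1, at -78 and -46 in CDK1, at -177, -144, -95, -69 and -66 in HMMR and at -85 in CDC25C. The box at -24 in MKI67 thus lay downstream of both CHR matches, and that at -46 in CDK1 between 2 of them.

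Windows without a CHR are shown of LIN52 and FZR1, which were within 1.5-fold of the control level in both knockdowns. They lie at chr14:74084706-74085005 (LIN52) and chr19:3522706-3523005 (FZR1, one of its 2 windows), both on the plus strand.
LIN52: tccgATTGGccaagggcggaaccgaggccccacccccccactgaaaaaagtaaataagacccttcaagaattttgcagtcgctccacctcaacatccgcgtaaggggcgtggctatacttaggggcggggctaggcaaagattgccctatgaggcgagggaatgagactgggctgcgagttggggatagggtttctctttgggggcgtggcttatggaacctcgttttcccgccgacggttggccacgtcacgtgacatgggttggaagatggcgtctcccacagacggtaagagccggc
FZR1: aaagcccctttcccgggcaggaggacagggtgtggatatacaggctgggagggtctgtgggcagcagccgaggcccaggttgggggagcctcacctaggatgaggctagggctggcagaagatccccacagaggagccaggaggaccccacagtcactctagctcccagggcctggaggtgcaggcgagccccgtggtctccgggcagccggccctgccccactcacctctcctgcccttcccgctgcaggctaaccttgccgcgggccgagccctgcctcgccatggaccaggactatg
These windows held no CHR, and that of LIN52 held a CCAAT box at -246. A CHR was found in 26 of the 34 genes with a window that were at least 4-fold lower in both knockdowns and in 7 of the 10 others, among them LIN54 (at -100 and -89 in its windows) and FZR1 (at -226 in its other window). CCNB1, KIF2C and MYBL2 fell at least 4-fold in both knockdowns and had no CHR in their windows. The windows shown thus do not separate genes that fell from genes that did not.

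The mitotic cyclins and kinases that start mitosis were all lower in both knockdowns. All 10 genes of this group were called in each, 9 at least 4-fold lower in ZM11-kd1 and 8 in ZM11-kd2, with median log2 fold changes of -4.30 and -3.33. CCNB1 (chr5:69167135-69178245), the cyclin that activates CDK1 at mitotic entry, was at 114 and 110 CPM in control, 3.47 and 3.07 CPM in ZM11-kd1 and 4.31 and 4.32 CPM in ZM11-kd2. Its control libraries stood far above all 4 knockdown libraries, with log2 fold changes of -5.09 (standard error 0.09, adjusted p = 1.35e-14, edgeR) in ZM11-kd1 and -4.70 (standard error 0.09, adjusted p = 3.28e-14, edgeR) in ZM11-kd2. CDK1 itself (chr10:60778331-60794852), the kinase that drives mitosis, was at 161 and 155 CPM in control, 7.68 and 8.14 CPM in ZM11-kd1 and 12.8 and 11.6 CPM in ZM11-kd2. It was left at 5.01% of the control level in ZM11-kd1 (log2 fold change -4.32, standard error 0.08, adjusted p = 1.35e-14, edgeR) and at 7.73% in ZM11-kd2 (-3.69, standard error 0.07, adjusted p = 5.11e-14, edgeR).

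The Polo-like and Aurora kinases followed. PLK1 (chr16:23677656-23690367), which promotes entry and spindle assembly, had 41.1 and 40.0 CPM in control, 1.41 and 2.06 CPM in ZM11-kd1 and 3.78 and 4.53 CPM in ZM11-kd2. The groups were fully separated, and the log2 fold change was -4.56 (standard error 0.15, adjusted p = 2.02e-12, edgeR) in ZM11-kd1 and -3.29 (standard error 0.13, adjusted p = 1.82e-11, edgeR) in ZM11-kd2. AURKA (chr20:56369389-56392337), the centrosomal kinase that matures the spindle poles, had 37.6 and 39.6 CPM in control, 1.33 and 2.23 CPM in ZM11-kd1 and 5.07 and 4.99 CPM in ZM11-kd2. Both knockdowns lay below control and ZM11-kd1 lay below ZM11-kd2, with log2 fold changes against control of -4.46 (standard error 0.16, adjusted p = 4.14e-12, edgeR) and -2.94 (standard error 0.13, adjusted p = 7.81e-11, edgeR). CCNA2, CCNB2 and PLK4, the kinase that licenses centriole duplication, had log2 fold changes of -4.65, -3.91 and -3.45 in ZM11-kd1 and -3.67, -3.43 and -3.27 in ZM11-kd2.

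The 3 CDC25 phosphatases, which remove the inhibitory phosphates from CDK1, fell to different degrees. CDC25C (chr5:138285269-138338355), the form tied to mitotic entry, was at 17.5 and 16.8 CPM in control, 0.883 and 0.878 CPM in ZM11-kd1 and 2.01 and 1.25 CPM in ZM11-kd2, giving log2 fold changes of -4.28 (standard error 0.20, adjusted p = 9.25e-11, edgeR) and -3.38 (standard error 0.18, adjusted p = 5.4e-10, edgeR). Its annotated exons share 293 bases with FAM53C on the opposite strand, and the use of strand in counting is not given in the sources used here. CDC25A (chr3:48157146-48188417), which also acts at the start of S phase, kept more of its level. It was at 22.8 and 25.1 CPM in control, 5.50 and 5.00 CPM in ZM11-kd1 and 9.80 and 8.50 CPM in ZM11-kd2, with log2 fold changes of -2.18 (standard error 0.12, adjusted p = 4.55e-10, edgeR) and -1.39 (standard error 0.11, adjusted p = 4.5e-08, edgeR). CDC25B (chr20:3786772-3806121) was the least reduced, at 89.6 and 88.9 CPM in control, 26.3 and 31.6 CPM in ZM11-kd1 and 54.3 and 49.4 CPM in ZM11-kd2. This left 32.4% of the control level in ZM11-kd1 (log2 fold change -1.63, standard error 0.08, adjusted p = 1.78e-10, edgeR) and 58.1% in ZM11-kd2 (-0.78, standard error 0.08, adjusted p = 4.73e-07, edgeR), and no knockdown library reached a control library.

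All 12 mitotic kinesins were called lower in both knockdowns, 11 of them at least 4-fold in each, with median log2 fold changes of -5.12 in ZM11-kd1 and -4.43 in ZM11-kd2. The largest falls, averaged over both knockdowns, were those of KIF14, KIF18B and KIF20A. KIF14 (chr1:200551497-200620751), a midbody motor that localizes citron kinase, was at 31.8 and 30.9 CPM in control, 0.177 and 0.270 CPM in ZM11-kd1 and 0.252 and 0.350 CPM in ZM11-kd2. It kept 0.715% of its control level in ZM11-kd1 (log2 fold change -7.13, standard error 0.20, adjusted p = 4.33e-13, edgeR) and 0.970% in ZM11-kd2 (-6.69, standard error 0.18, adjusted p = 7.98e-13, edgeR), and the libraries of the knockdowns overlapped each other. KIF18B (chr17:44924709-44947773), which shortens astral microtubules, had 55.9 and 52.8 CPM in control, 0.236 and 0.372 CPM in ZM11-kd1 and 1.15 and 1.26 CPM in ZM11-kd2. Here the knockdowns were separated from control and from each other, with log2 fold changes of -7.49 (standard error 0.16, adjusted p = 5.42e-14, edgeR) and -5.50 (standard error 0.13, adjusted p = 1.77e-13, edgeR). KIF20A (chr5:138178719-138187723), which carries the chromosomal passenger complex to the central spindle, had 55.2 and 54.4 CPM in control, 0.648 and 0.743 CPM in ZM11-kd1 and 1.01 and 0.963 CPM in ZM11-kd2. Its log2 fold changes were -6.30 (standard error 0.13, adjusted p = 4.24e-14, edgeR) and -5.79 (standard error 0.12, adjusted p = 1.05e-13, edgeR).

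The kinesins with the smallest falls were KIF22 and KIF20B. KIF22 (chr16:29790727-29805385), a chromokinesin that pushes chromosome arms outward, was at 77.1 and 78.2 CPM in control, 36.1 and 41.5 CPM in ZM11-kd1 and 29.4 and 29.6 CPM in ZM11-kd2. It was the kinesin that was under 4-fold lower, with log2 fold changes of -1.003 (standard error 0.07, adjusted p = 8.29e-09, edgeR) and -1.40 (standard error 0.07, adjusted p = 4.32e-10, edgeR). KIF20B (chr10:89701590-89774939), which acts in cytokinesis, was at 6.70 and 6.83 CPM in control, 0.559 and 0.608 CPM in ZM11-kd1 and 1.12 and 0.905 CPM in ZM11-kd2, and its log2 fold changes were -3.53 (standard error 0.25, adjusted p = 5.6e-09, edgeR) and -2.73 (standard error 0.22, adjusted p = 4.25e-08, edgeR). Between these extremes, KIF11 (Eg5, which pushes the spindle poles apart) and KIF2C (MCAK, which corrects faulty attachments) had log2 fold changes of -4.95 and -4.90 in ZM11-kd1 and -3.73 and -5.17 in ZM11-kd2. KIF15, KIF18A, KIF23, KIF4A and KIFC1 ranged from -6.48 to -4.72 in ZM11-kd1 and from -5.10 to -3.04 in ZM11-kd2.

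Of the 16 spindle and cytokinesis factors, 15 were called lower in each knockdown, 15 at least 4-fold in ZM11-kd1 and 13 in ZM11-kd2, with medians of -5.43 and -3.85. ASPM (chr1:197084121-197146694), which binds microtubule minus ends at the spindle poles, was at 106 and 105 CPM in control, 0.648 and 0.372 CPM in ZM11-kd1 and 0.924 and 1.17 CPM in ZM11-kd2. That is 0.494% of control in ZM11-kd1 (log2 fold change -7.66, standard error 0.14, adjusted p = 1.35e-14, edgeR) and 0.991% in ZM11-kd2 (-6.66, standard error 0.12, adjusted p = 3.28e-14, edgeR). After the GC content and length correction the log2 fold change of ASPM in ZM11-kd1 was -6.95. ARHGAP11A (chr15:32615144-32639941), a GTPase-activating protein for RhoA, had 304 and 372 counts in control, 2 in each ZM11-kd1 library, and 6 and 3 in ZM11-kd2. Summed, ZM11-kd1 had 4 counts and control 676, a level of 0.572% of control with a 95% counting interval of 0.155% to 1.47%, and the fitted log2 fold changes were -7.36 (standard error 0.34, adjusted p = 6.42e-11, edgeR) and -6.37 (standard error 0.30, adjusted p = 1.25e-10, edgeR). HMMR (chr5:163460203-163491941), a spindle microtubule protein first known as a hyaluronan receptor, had 74.4 and 77.0 CPM in control, 0.795 and 0.777 CPM in ZM11-kd1 and 1.74 and 1.81 CPM in ZM11-kd2. Its log2 fold changes were -6.58 (standard error 0.12, adjusted p = 1.35e-14, edgeR) and -5.41 (standard error 0.10, adjusted p = 3.93e-14, edgeR), with all 3 groups apart.

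NUSAP1, which did not fall, and CKAP2 had the highest mean log2 fold changes of this group. Both encode spindle-associated proteins. NUSAP1 (chr15:41320794-41381050) had only 32 and 38 counts in control, 41 in each ZM11-kd1 library, and 72 and 48 in ZM11-kd2, and was not called in ZM11-kd1 (log2 fold change 0.18, standard error 0.33, adjusted p = 0.618, edgeR) or in ZM11-kd2 (0.59, standard error 0.31, adjusted p = 0.104, edgeR). Without ZM11-kd2 replicate 2 it was called higher in ZM11-kd2 (0.83, adjusted p = 0.0482, edgeR). Its exons share 195 bases with OIP5-AS1 on the same strand, which had 42108 counts over the 6 libraries, and 352 bases with OIP5 on the other strand, so its level is uncertain. CKAP2 (chr13:52455429-52476628) was at 113 and 109 CPM in control, 14.4 and 12.7 CPM in ZM11-kd1 and 29.9 and 29.7 CPM in ZM11-kd2, with log2 fold changes of -3.03 (standard error 0.08, adjusted p = 1.62e-13, edgeR) and -1.90 (standard error 0.07, adjusted p = 1e-11, edgeR). PRC1, which bundles the antiparallel microtubules of the central spindle, was also barely counted, with 32 and 16 counts in control, 5 and 0 in ZM11-kd1 and 0 and 1 in ZM11-kd2. It shares 1892 exonic bases with PRC1-AS1 on the other strand. Its summed level in ZM11-kd2 was 1.83% of control with a 95% counting interval of 0.0454% to 10.7%, and its call in ZM11-kd1 was lost without control replicate 1 (log2 fold change -2.68, adjusted p = 0.0611, edgeR). With a library left out, the log2 fold change of PRC1 ranged from -7.66 to -2.38 in ZM11-kd1 and from -7.66 to -4.57 in ZM11-kd2. Of the remaining factors, CIT, CEP55, CKAP2L, DLGAP5, ANLN and TPX2 had log2 fold changes from -6.28 to -5.37 in ZM11-kd1 and from -5.90 to -3.56 in ZM11-kd2. RACGAP1, TACC3, ECT2 and SPAG5 ranged from -4.27 to -3.07 in ZM11-kd1 and from -3.50 to -1.87 in ZM11-kd2. Over the alternatives CIT in ZM11-kd1 ranged from -6.63 to -5.58.

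The APC/C factors divided. CDC20 (chr1:43358981-43363203), the coactivator that triggers anaphase, was at 76.3 and 77.2 CPM in control, 1.91 and 3.18 CPM in ZM11-kd1 and 2.88 and 3.503 CPM in ZM11-kd2, with log2 fold changes of -4.93 (standard error 0.14, adjusted p = 6.54e-13, edgeR) and -4.59 (standard error 0.13, adjusted p = 1.37e-12, edgeR). After the GC content and length correction CDC20 was at -5.72 in ZM11-kd1. FZR1 (CDH1; chr19:3506311-3538334), the coactivator of late mitosis and G1, was at 52.5 and 48.2 CPM in control, 74.8 and 74.1 CPM in ZM11-kd1 and 49.01 and 47.6 CPM in ZM11-kd2. Both ZM11-kd1 libraries were above control (log2 fold change 0.57, standard error 0.06, adjusted p = 1.31e-06, edgeR), while the ZM11-kd2 libraries overlapped it (-0.06, standard error 0.07, adjusted p = 0.418, edgeR). When libraries were scaled by their totals alone, which shifts the median of all genes by -0.355 in ZM11-kd1 and -0.17 in ZM11-kd2, FZR1 was called lower in ZM11-kd2 (-0.23, adjusted p = 0.00672, edgeR). UBE2C, the ubiquitin-conjugating enzyme of the APC/C, securin (PTTG1) and separase (ESPL1) had log2 fold changes of -5.17, -4.24 and -6.77 in ZM11-kd1 and -4.44, -2.92 and -5.02 in ZM11-kd2. ESPL1 fell from 94.6 and 87.8 CPM in control to 0.824 and 0.844 CPM in ZM11-kd1 and to 2.80 CPM in each library of ZM11-kd2.

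Among the transcriptional activators, MYBL2 and FOXM1 fell at least 4-fold in both knockdowns, and the 3 MuvB subunits in neither. MYBL2 (B-MYB; chr20:43667019-43716495) was at 65.4 CPM in each control library, 2.91 and 3.01 CPM in ZM11-kd1 and 6.49 and 5.34 CPM in ZM11-kd2, with log2 fold changes of -4.47 (standard error 0.11, adjusted p = 1.54e-13, edgeR) and -3.46 (standard error 0.10, adjusted p = 1.09e-12, edgeR). After the GC content and length correction MYBL2 was at -5.145 in ZM11-kd1. FOXM1 (chr12:2857680-2877174), the forkhead factor of G2 and M phase, was at 107 and 101 CPM in control, 2.77 and 3.21 CPM in ZM11-kd1 and 9.88 and 11.7 CPM in ZM11-kd2, with log2 fold changes of -5.12 (standard error 0.11, adjusted p = 4.05e-14, edgeR) and -3.27 (standard error 0.09, adjusted p = 6.73e-13, edgeR). FOXM1 shares 782 exonic bases with ITFG2 on the other strand. LIN9 (chr1:226231149-226309869), the MuvB scaffold, was at 40.9 and 39.6 CPM in control, 13.1 and 10.4 CPM in ZM11-kd1 and 15.1 and 14.4 CPM in ZM11-kd2. It was the MuvB subunit with the largest fall, with log2 fold changes of -1.77 (standard error 0.10, adjusted p = 8.19e-10, edgeR) and -1.45 (standard error 0.10, adjusted p = 8.4e-09, edgeR).

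LIN52 and LIN54 were the members that were called in opposite directions in the knockdowns. The share of all genes tested that were called so was not counted. LIN52 (chr14:74084956-74201493), the MuvB subunit whose phosphorylation by DYRK1A favours DREAM, was at 27.1 and 25.8 CPM in control, 22.8 and 21.0 CPM in ZM11-kd1 and 32.7 and 34.9 CPM in ZM11-kd2. The log2 fold change was -0.27 (standard error 0.08, adjusted p = 0.00889, edgeR) in ZM11-kd1 and 0.35 (standard error 0.08, adjusted p = 0.00111, edgeR) in ZM11-kd2. LIN54 (chr4:82909973-83012926), the subunit that contacts the CHR, was at 45.3 and 48.0 CPM in control, 36.1 and 30.9 CPM in ZM11-kd1 and 57.2 and 61.8 CPM in ZM11-kd2, giving -0.48 (standard error 0.08, adjusted p = 9.26e-05, edgeR) and 0.35 (standard error 0.08, adjusted p = 0.0011, edgeR). No libraries of these groups overlapped, but with library totals alone the rises in ZM11-kd2 were 0.18 for each gene and were no longer called (adjusted p = 0.0649 and 0.0669, edgeR), and after a correction for GC content and exon length LIN54 was at -0.04 in ZM11-kd1 (adjusted p = 0.668, edgeR). The fall of LIN52 in ZM11-kd1 was lost without control replicate 1 (adjusted p = 0.0697, edgeR) or without ZM11-kd1 replicate 2 (adjusted p = 0.0919, edgeR).

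MKI67 (chr10:128096659-128126423), which encodes the Ki-67 antigen that coats mitotic chromosomes and is the common marker of cycling cells, had the largest fall of all 49 genes in ZM11-kd1 and the third largest in ZM11-kd2. It had 5686 and 5885 counts in control, 22 and 21 in ZM11-kd1 and 69 and 67 in ZM11-kd2, or 187 and 190 CPM, 0.648 and 0.709 CPM, and 1.93 and 1.96 CPM. The knockdowns held 0.361% of the control level in ZM11-kd1 (log2 fold change -8.11, standard error 0.10, adjusted p = 7.91e-16, edgeR) and 1.03% in ZM11-kd2 (-6.59, standard error 0.09, adjusted p = 1.33e-15, edgeR).

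Of 6 lists of genes that work beside these members but were outside them, a mixed list of further mitotic regulators had the lowest median in each knockdown. The counts in these lists are to be read against the shares of all genes called lower (39.8% and 36.9% in ZM11-kd1 and ZM11-kd2) and higher (38.2% and 36.5%). Library totals alone shifted the median of all genes by -0.355 in ZM11-kd1 and -0.17 in ZM11-kd2, and the list medians given under that setting carry the same shift. Of 27 transport kinesins and kinesin light chains, 13 were called lower and 8 higher in ZM11-kd1 and 9 lower and 8 higher in ZM11-kd2, with median log2 fold changes of -0.17 and -0.04, which were 0.03 in each knockdown after the correction for GC content and exon length and -0.53 and -0.21 with library totals alone. Under the latter, 17 were lower and 3 higher in ZM11-kd1 and 12 lower and 5 higher in ZM11-kd2. The light chain KLC2 rose by log2 fold changes of 1.64 and 1.19 and the neuronal vesicle motor KIF1A by 1.41 and 1.33, while KIF21B was at -2.39 and -2.14 and KIF12 at -1.16 and -2.41. The 14 core subunits of the APC/C, whose coactivator CDC20 fell so far, had medians of 0.25 and 0.20 with 5 lower and 7 higher in ZM11-kd1 and 6 lower and 7 higher in ZM11-kd2. With library totals alone the medians were -0.10 and 0.03, with 7 lower and 6 higher in ZM11-kd1 and 6 lower and 6 higher in ZM11-kd2, and after the GC content and length correction 3 were lower and 8 higher in ZM11-kd1 and 4 lower and 8 higher in ZM11-kd2. ANAPC10 rose by 1.94 and 1.57, ANAPC13 by 1.22 and 1.63, and ANAPC4 and ANAPC1 were at -0.70 and -1.23 in ZM11-kd1 and at -1.06 and -0.45 in ZM11-kd2, where ANAPC1 was not called after the GC content and length correction (-0.13, adjusted p = 0.091, edgeR). Of 3 partners of the APC/C, the inhibitor FBXO5 (EMI1) was called at -2.52 and -3.20 and UBE2S, which extends ubiquitin chains, at -0.41 and -1.16, while UBE2D1 was at -0.03 and 0.68 and called only in ZM11-kd2.

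Of 9 further genes of the DREAM complex or its regulation, LIN37 and RBBP4 of the MuvB core among them, 4 were called lower and 2 higher in ZM11-kd1 and 4 lower and 3 higher in ZM11-kd2, with medians of -0.02 and 0.13. With library totals alone the medians were -0.38 and -0.04, with 7 lower and 0 higher in ZM11-kd1 and 4 lower and 2 higher in ZM11-kd2. After the GC content and length correction they were -0.47 and 0.02, with 4 lower and 4 higher in ZM11-kd1 and 3 lower and 3 higher in ZM11-kd2. The pocket proteins RBL1 (p107), at -2.68 and -2.07, and RBL2 (p130), at -2.55 and -1.35, fell most, E2F5 rose by 0.58 and 0.60 and the kinase DYRK1A by 0.16 and 0.56. In ZM11-kd1, with library totals alone and their shift of all genes, E2F5 was at 0.23 (adjusted p = 0.0552, edgeR) and DYRK1A at -0.20 (adjusted p = 0.00556, edgeR). LIN37 and RBBP4 were not called, at 0.14 and -0.02 in ZM11-kd1 and 0.17 and 0.13 in ZM11-kd2. RBL2 was at 101 and 105 CPM in control, 18.7 and 16.3 CPM in ZM11-kd1 and 36.5 and 44.5 CPM in ZM11-kd2.

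Of 22 further mitotic regulators, 16 were called lower in each knockdown, 9 of them at least 4-fold in ZM11-kd1 and 8 in ZM11-kd2, with medians of -1.59 and -1.37. Called higher were 5 in ZM11-kd1 and 6 in ZM11-kd2. The list held regulators of entry and centriole duplication and also other mitotic kinases, among them BUB1, TTK and AURKB. With library totals alone the medians were -1.95 and -1.55, with 17 lower and 4 higher in ZM11-kd1 and 16 lower and 3 higher in ZM11-kd2. After the GC content and length correction they were -1.46 and -1.50, with 14 lower and 7 higher in ZM11-kd1 and 15 lower and 4 higher in ZM11-kd2. GTSE1, a microtubule tip protein that also restrains p53, was at -6.17 and -5.80, and the centrosomal kinase NEK2 at -6.05 and -5.05. Both are regarded as late cell cycle genes themselves. The genes of the CDK-activating kinase, CCNH, CDK7 and MNAT1 (the last pair named after their values were seen), rose by 1.28, 0.71 and 0.86 in ZM11-kd1 and by 0.96, 0.32 and 0.34 in ZM11-kd2, and ENSA, an inhibitor of the phosphatase that opposes CDK1, by 0.79 and 0.64. With library totals alone CDK7 and MNAT1 were not called in ZM11-kd2 (adjusted p = 0.124 and 0.0924, edgeR), nor after the GC content and length correction (adjusted p = 0.432 and 0.161, edgeR). Of 17 general cytokinesis and abscission factors, which also serve cells outside mitosis, 4 were lower and 10 higher in ZM11-kd1 and 3 lower and 12 higher in ZM11-kd2, with medians of 0.37 and 0.36. With library totals alone the medians were 0.02 and 0.19, with 7 lower and 8 higher in ZM11-kd1 and 4 lower and 10 higher in ZM11-kd2. After the GC content and length correction they were 0.55 and 0.41, with 2 lower and 13 higher in ZM11-kd1 and 0 lower and 13 higher in ZM11-kd2. The ESCRT subunit CHMP4B rose by 1.55 and 1.27 and the recycling GTPase RAB11A by 1.54 and 1.10, whereas MYH10, a heavy chain of nonmuscle myosin, was at -2.17 and -0.60, the latter not called after the GC content and length correction (-0.08, adjusted p = 0.257, edgeR).

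The knockdowns differed from each other in how much of these RNAs was left. In ZM11-kd2 against ZM11-kd1, 37 of the 49 genes were called higher, where 34.9% of all genes tested were, 2 were called lower (KIF22 and FZR1), where 33.8% were, and 10 were not called. The median log2 difference was 0.85, against 0.02 over all genes. Of the 45 genes that fell in both knockdowns, 35 were higher in ZM11-kd2 than in ZM11-kd1, 1 was lower (KIF22) and 9 were not called. For 41 genes both ZM11-kd2 libraries were above both ZM11-kd1 libraries, as they were for 42.1% of all genes tested. For ZMYND11 itself both ZM11-kd2 libraries were below both ZM11-kd1 libraries after TMM, but not when scaled by library totals alone, where they were at 24.6 and 22.9 CPM in ZM11-kd1 and 21.4 and 23.1 CPM in ZM11-kd2 (log2 difference -0.10, adjusted p = 0.259, edgeR).

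Of the members called between the knockdowns, ECT2 and RACGAP1 differed most. ECT2, the exchange factor that activates RhoA at the cell equator, was at 113 and 106 CPM in control, 6.24 and 7.50 CPM in ZM11-kd1 and 29.5 and 30.7 CPM in ZM11-kd2. It stood 4.40-fold higher in ZM11-kd2 than in ZM11-kd1 (log2 difference 2.14, standard error 0.09, adjusted p = 1.14e-10, edgeR). RACGAP1, the centralspindlin subunit that recruits ECT2, was at 120 and 117 CPM in control, 6.24 and 6.05 CPM in ZM11-kd1 and 24.2 and 28.0 CPM in ZM11-kd2, a difference of 2.08 (standard error 0.10, adjusted p = 1.69e-10, edgeR). Its partner in centralspindlin, the kinesin KIF23, differed by 1.503 (standard error 0.17, adjusted p = 1.94e-06, edgeR), and CKAP2L, a spindle protein, by 2.01 (standard error 0.24, adjusted p = 3.53e-06, edgeR). KIF18B, FOXM1 and TPX2 differed by 1.99, 1.85 and 1.80, and MKI67 by 1.52.

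Other members were left at more alike levels. CCNB1 was 1.31-fold higher in ZM11-kd2 (log2 difference 0.39, standard error 0.12, adjusted p = 0.0112, edgeR), a call that was lost without ZM11-kd1 replicate 2 (0.32, adjusted p = 0.0897, edgeR). TACC3, which stabilizes kinetochore fibres, differed by 0.57 (standard error 0.08, adjusted p = 3.54e-05, edgeR). PLK4 was at 0.18 (standard error 0.15, adjusted p = 0.29, edgeR) and was not called. CDC20, at 0.35 (standard error 0.20, adjusted p = 0.133, edgeR), was not called either, but its value depended on the processing. It was at 0.89 after the GC content and length correction (adjusted p = 0.000744, edgeR), 0.53 with library totals alone (adjusted p = 0.0252, edgeR), 0.74 without ZM11-kd1 replicate 2 (adjusted p = 0.00583, edgeR) and 0.01 without ZM11-kd1 replicate 1 (adjusted p = 0.977, edgeR). KIF22 was at -0.39 (standard error 0.07, adjusted p = 0.000324, edgeR) and FZR1 at -0.62 (standard error 0.06, adjusted p = 6.67e-07, edgeR), and for both all ZM11-kd2 libraries were below all ZM11-kd1 libraries. The other genes not called were KIF14, KIF20A, KIF2C, PRC1, ARHGAP11A, NUSAP1, CEP55 and DLGAP5, with standard errors of at least 0.24 and at most 78 counts in any knockdown library.

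**Figure D4:**
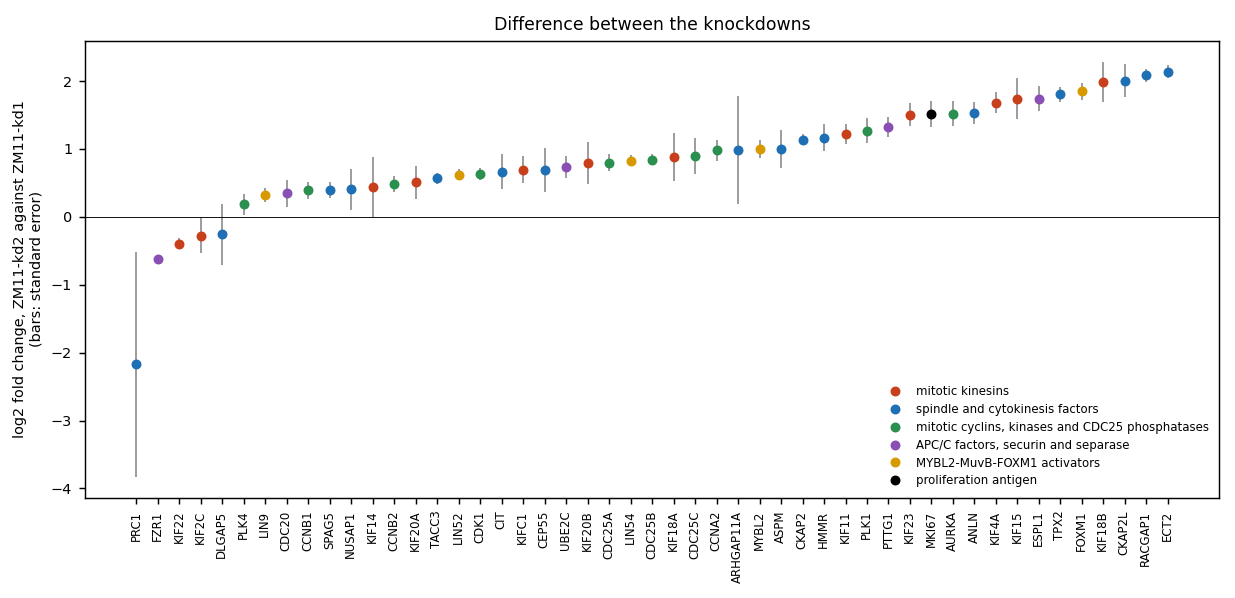
Log2 fold change of ZM11-kd2 against ZM11-kd1 for each of the 49 genes in rising order, coloured by role, with bars for the standard error (edgeR, 2 libraries per group). ECT2, RACGAP1 and CKAP2L lie at the upper end, at or above 2.01, and FZR1 and KIF22 are the genes called below 0; the wide bar of PRC1 rests on 6 counts in the 4 knockdown libraries.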

How the data were processed

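The authors assessed reads with FastQC 0.11.9, trimmed them with AdapterRemoval and aligned them to hg38 with STAR 2.7.9a, and deposited unnormalized read counts for each gene symbol. HTSeq 0.13.5 is named in the submitters' processing notes, and the strand setting and annotation of counting are not given in the sources used here. From the counts, TMM normalization, filterByExpr and one quasi-likelihood fit of the 3 groups were run in edgeR 4.0.16 (R 4.3.3) with 3 residual degrees of freedom. P-values were adjusted over all 16510 genes tested and measure only the spread between these libraries, which may be technical. Replicates differed beyond sampling noise (chi-square per degree of freedom of 2.34 to 10.1). Symbols were placed in GENCODE 44, where 32852 of 35322 matched. The members, lists, tests and alternatives were chosen with earlier results of these data known. Statistics are given in full for mitotic entry kinases and phosphatases, CDC20, FZR1, transcriptional activators and MKI67, and for the 3 lowest and 2 highest log2 fold changes among kinesins and among spindle factors, averaged over both knockdowns. From the other lists, up to 2 called rises and 2 called falls were to be named. Further members given with statistics, and CDK7 and MNAT1, were chosen after their values were seen. The code was tested on simulated data. Counting intervals (95%) cover counting error only. Alternatives were DESeq2 size factors, library totals alone, testing with DESeq2 1.42.0, fits without the filter or with a minimum of 10 counts per library, a block for replicate number, fits restricted to the compared groups, a correction for GC content and exon length (lowess span 0.3, added later), and each library left out in turn. Levels of some single genes are not reported here.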

Additional observations from a re-analysis of the deposited data

Results flagged for a closer look

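LIN52 and LIN54 were flagged because all libraries of one knockdown moved one way from control and all libraries of the other the opposite way, and because the difference between the knockdowns was itself called. The share of all genes tested that meet this rule was not counted. Of all genes, 34.9% were called higher and 33.8% lower in ZM11-kd2 than in ZM11-kd1, so whether the pattern is particular to these genes is not known. In ZM11-kd2 against ZM11-kd1 the log2 fold change was 0.62 for LIN52 (standard error 0.08, adjusted p = 8.42e-06, edgeR) and 0.83 for LIN54 (standard error 0.08, adjusted p = 4.19e-07, edgeR). Both genes were higher in both ZM11-kd2 libraries than in both ZM11-kd1 libraries.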

How the results depend on the processing

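The number of members called lower lay between 40 and 47 in ZM11-kd1 and between 38 and 46 in ZM11-kd2 over all alternatives, and the lowest values came from the filter of at least 10 counts in every library, under which fewer members were tested. The median log2 fold change of the members moved with that filter to -4.55 in ZM11-kd1 and -3.485 in ZM11-kd2, and with library totals alone to -5.07, -3.84 and, between the knockdowns, 1.03. Library totals alone shifted the median of all genes by -0.355, -0.17 and 0.184 in these comparisons and left 0 members called higher in ZM11-kd2 (edgeR). With a library left out, the median in ZM11-kd2 ranged from -3.77 to -3.59. Labels give each group replicates 1 and 2, but same-numbered libraries did not deviate together (correlations 0.0062, -0.0264 and -0.044). The fit with the replicate block called 47 members lower in ZM11-kd1, 45 in ZM11-kd2 and 36 higher in ZM11-kd2 than ZM11-kd1, where CIT was lost (0.66, adjusted p = 0.05, edgeR).

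For single members, 674 of 679 alternatives in ZM11-kd1, 673 of 679 in ZM11-kd2 and 630 of 676 between the knockdowns left direction and call as they were. Between the knockdowns the number called higher ranged from 32 to 41, the calls of KIF18A, KIF20B, KIFC1, ASPM, CIT, SPAG5, CCNB1, CDC25C and LIN9 were lost under at least 1 alternative, and KIF2C, KIF20A, CEP55, DLGAP5, PLK4 and CDC20 were called under at least 1. The members whose sign turned were not called in the fit reported. With another setting these were NUSAP1 in ZM11-kd1 (-0.17, library totals) and, after the GC and length correction, FZR1 in ZM11-kd2 (0.028) and KIF14 (-0.021) and PLK4 (-0.14) between the knockdowns. With a library left out, FZR1 in ZM11-kd2 ranged from -0.12 to 0.0001227, and between the knockdowns KIF2C ranged from -0.64 to 0.18, PRC1 from -4.39 to 2.23, DLGAP5 from -1.36 to 0.37 and PLK4 from -0.023 to 0.41. The cause was not tested. Depth limits what can be said of PRC1, NUSAP1 and ARHGAP11A.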
